A study of Homo sapiens with 9 samples.

Results

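NRK, DAPK1, SALL2, NDRG2 and KIF21B were described across MDA-MB-231 cells and their metastatic derivatives. They were chosen because their read counts were lower in the lung metastatic line LM2 and higher in the brain metastatic line BrM2 than in the parental line (Par), so the order of the lines given for them is a description and carries no test. These are 5 of 58884 genes in the count table and 5 of the 13018 genes that passed a filter on low counts. The filter kept genes above 47.15 normalized counts in any library. NRK, NDRG2, KIF21B and DAPK1 passed it only through BrM2, with at most 14.5, 19.9, 18.8 and 43.1 normalized counts in Par, and SALL2 also passed in Par.

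MDA-MB-231 is an established triple-negative, claudin-low human breast cancer cell line. LM2 and BrM2 are sub-populations selected from it in mice for their ability to colonize the lung and the brain, so each stands for 1 selected cell population and not for metastases in general. All 3 lines were grown as monolayers for 3 days with no treatment, and mRNA of 3 passages of each was sequenced, which gave 9 libraries. The p-values between lines below therefore set a difference against the spread between passages of a line. Same-numbered libraries of the 3 lines deviated together. That shared part stays in the spread unless the replicate number is a block in the model. Libraries held between 14371858 and 24511786 counts, and a count of 3, taken as the floor of detection in a library, was worth between 0.115 and 0.221 CPM (counts scaled to the normalized library size, per 1000000). Of the markers checked, VIM and CD44, which mark mesenchymal cells, had at least 13148 and 10759 counts in every library, and the epithelial CDH1 had at most 37. Of the other epithelial markers, EPCAM had 55 to 202 counts and CLDN4 was higher, at means of 95.4 CPM in Par, 5.84 CPM in LM2 and 20.0 CPM in BrM2. The estrogen receptor ESR1 had at most 16 and the progesterone receptor PGR at most 4. Of 15 markers of leukocytes, endothelium, fibroblasts, lung epithelium, neurons and glia, 8 did not exceed 3 counts in any library, among them RBFOX3 of neurons and AQP4 and MOG of glia, and the summed level of the 15 was 189.6 to 207 CPM in Par, 150.1 to 180.4 CPM in LM2 and 153 to 167 CPM in BrM2. Most of that sum came from MBP, a myelin gene, with at least 1856 counts in every library. The fibroblast marker DCN had at most 2 counts in any library. COL1A1, a collagen of fibroblasts, had means of 6.84 CPM in Par, 43.5 CPM in LM2 and 7.68 CPM in BrM2, so it was highest in the line in which the 5 genes were lowest. GFAP, a structural protein of astrocytes, was also detected, at means of 13.5 CPM in Par, 13.0 CPM in LM2 and 7.08 CPM in BrM2. So were the neuron marker SYP, with 13 to 62 counts, and the endothelial marker PECAM1, with 39 to 183. The endothelial VWF had at most 9 counts and the leukocyte marker PTPRC at most 6. The part of such cells in the levels below was not tested.

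The 5 genes belong to unrelated families. NRK (Nik-related kinase) is a serine/threonine kinase of the STE20 group best known from the placenta. DAPK1 (death-associated protein kinase) is a calcium/calmodulin-regulated kinase that promotes cell death and takes part in autophagy, and its promoter is often methylated in tumors. SALL2 is a zinc finger transcription factor of the spalt-like family, whose members bind the NuRD (nucleosome remodeling and deacetylase) complex, and it is needed for closure of the optic fissure of the eye. NDRG2 (N-myc downstream-regulated gene family) has the fold of an alpha/beta hydrolase, is abundant in astrocytes of the brain, and is often low in tumors. KIF21B is a neuronal motor of the kinesin-4 family that travels along microtubules and limits their growth.

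In GRCh38.p14, NRK spans 105821786 to 105958610 of the plus strand of chromosome X. DAPK1 spans 87497228 to 87708634 of the plus strand of chromosome 9. SALL2 (21521080 to 21537121) and NDRG2 (21016763 to 21070872) lie on the minus strand of chromosome 14 with 450 kb between them. KIF21B spans 200969390 to 201023714 of the minus strand of chromosome 1. Little of their transcript sequence is shared with other genes. No 50-base stretch of NRK, DAPK1 or KIF21B transcripts occurred in another gene, against 6.91% of the stretches of SALL2 and 2.77% of those of NDRG2. The SALL2 stretches were shared with an overlapping antisense gene, which had 0 counts in all 9 libraries, as did both antisense genes that overlap exons of NDRG2.

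The 5 genes were chosen for a shared order of the lines, and the 250 bases upstream of their RefSeq start sites are shown for comparison. The table of promoters gave an entry for 4 of them, and the first was taken where it held several, as for DAPK1 (2 entries) and NDRG2 (5 entries). The windows were chrX:105822289-105822538 (plus strand) for NRK, chr9:87497617-87497866 (plus strand) for DAPK1, chr14:21537122-21537371 (minus strand) for SALL2 and chr14:21026311-21026560 (minus strand) for NDRG2, in GRCh38.p14. The windows of NRK, DAPK1 and NDRG2 lie inside the annotated span of the gene. Capitals mark matches to the motifs searched on both strands, and the sequences read 5′ to 3′ on the strand of the gene:
NRK: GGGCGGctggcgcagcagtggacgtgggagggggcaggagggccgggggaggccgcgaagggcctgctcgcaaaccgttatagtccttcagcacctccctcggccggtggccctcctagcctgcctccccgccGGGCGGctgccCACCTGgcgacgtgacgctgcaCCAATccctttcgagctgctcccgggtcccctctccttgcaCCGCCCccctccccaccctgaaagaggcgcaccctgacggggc
DAPK1: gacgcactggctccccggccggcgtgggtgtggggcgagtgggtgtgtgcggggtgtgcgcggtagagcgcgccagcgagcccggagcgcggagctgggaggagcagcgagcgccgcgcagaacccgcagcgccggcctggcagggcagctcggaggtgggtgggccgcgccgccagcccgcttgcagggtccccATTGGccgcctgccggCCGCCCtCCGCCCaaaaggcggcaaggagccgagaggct
SALL2: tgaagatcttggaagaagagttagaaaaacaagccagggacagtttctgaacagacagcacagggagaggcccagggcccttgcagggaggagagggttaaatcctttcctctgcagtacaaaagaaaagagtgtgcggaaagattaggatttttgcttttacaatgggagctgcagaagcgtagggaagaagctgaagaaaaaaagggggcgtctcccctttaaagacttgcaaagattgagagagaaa
NDRG2: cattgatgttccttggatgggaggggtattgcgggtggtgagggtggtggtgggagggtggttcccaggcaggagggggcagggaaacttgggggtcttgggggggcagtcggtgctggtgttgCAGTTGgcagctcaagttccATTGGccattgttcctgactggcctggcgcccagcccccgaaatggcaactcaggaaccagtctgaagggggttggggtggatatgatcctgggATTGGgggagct

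The 4 windows had little in common. DAPK1 held 32 CG pairs and NRK held 21, whereas NDRG2 held 4 and SALL2 held 3, around a median of 11 over 27305 promoters of the same length. GC content was 77.2% in DAPK1, 72.8% in NRK, 61.2% in NDRG2 and 46.0% in SALL2. The GC box GGGCGG occurred 3 times in NRK and 2 times in DAPK1 but not in the other two, and 42.3% of all promoters held it. The CCAAT box (CCAAT, or ATTGG on the other strand) occurred 2 times in NDRG2 and 1 time each in NRK and DAPK1, against 33.0% of promoters with a match. An E box (CANNTG) was found 1 time each in NRK and NDRG2, and in 62.2% of promoters. No letters of the TATA box TATAAA (11.1% of promoters), the AP-1 site TGANTCA (6.6%), the CRE TGACGTCA (1.8%), the Ets site CCGGAAGT (3.6%) or the octamer ATGCAAAT (1.7%) were present in any of the 4 windows. The SALL2 window matched none of the motifs, which says only that these letters are not in its 250 bases.

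NRK had the widest range of the 5 genes. Its counts were 6, 7 and 18 in Par replicates 1, 2 and 3, then 0, 1 and 0 in LM2, and 192, 950 and 714 in BrM2. The lines did not overlap, and LM2 was at the floor in every library. The mean level was 0.454 ± 0.22 CPM in Par, 0.0136 ± 0.0236 CPM in LM2 and 30.1 ± 14.3 CPM in BrM2 (SD, n = 3 for these and all following means). BrM2 was 68.3 times Par in summed CPM, with an exact 95% interval of 48.0 to 100.8 that covers counting error only. The Par to LM2 ratio of 33.7 rests on 1 count in LM2 and had an interval of 5.61 to 1372. Within BrM2, replicate 1 (14.2 CPM) was well under replicates 2 (41.9 CPM) and 3 (34.2 CPM).

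DAPK1 was detected in every Par and BrM2 library and was at the floor in LM2. Its counts were 39, 26 and 50 in Par, 0, 3 and 2 in LM2, and 248, 262 and 270 in BrM2. No library of a line overlapped with another line. In CPM, the means were 1.76 ± 0.434 in Par, 0.0664 ± 0.0619 in LM2 and 14.3 ± 3.55 in BrM2. The BrM2 to Par ratio was 7.74 (counting interval 6.36 to 9.50) and the Par to LM2 ratio was 25.0 (10.4 to 78.4).

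SALL2 was the gene with the highest level per length in Par. It had 67, 34 and 60 counts in Par, 2, 1 and 2 in LM2, and 215, 204 and 219 in BrM2. The 3 LM2 libraries were all at or under the floor and the lines were again separate. The means were 2.51 ± 0.946 CPM in Par, 0.0722 ± 0.0295 CPM in LM2 and 11.8 ± 3.60 CPM in BrM2. Its BrM2 to Par ratio of 4.52 (3.80 to 5.41) was the smallest of the 5, and it had a Par to LM2 ratio of 35.0 (14.7 to 109.2).

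NDRG2 had 18, 11 and 8 counts in Par, 1, 1 and 0 in LM2, and 67, 114 and 105 in BrM2. Once scaled, its 3 BrM2 libraries were close to each other, at 4.94, 5.03 and 5.03 CPM. The mean was 0.598 ± 0.32 CPM in Par and 0.0302 ± 0.0265 CPM in LM2. The BrM2 to Par ratio was 8.82 (6.25 to 12.8), and the Par to LM2 ratio of 20.1 (5.18 to 172.1) rests on 2 counts in LM2.

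KIF21B was the least abundant of the 5 in BrM2. Its counts were 17, 10 and 9 in Par, 2, 0 and 0 in LM2, and 59, 50 and 70 in BrM2. The means were 0.577 ± 0.281 CPM, 0.0331 ± 0.0573 CPM and 3.30 ± 1.07 CPM, again without overlap between the lines. BrM2 was 5.67 times Par (3.95 to 8.36), and the Par to LM2 ratio of 19.6 (5.03 to 167.6) rests on 2 counts.

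**Figure D1:**
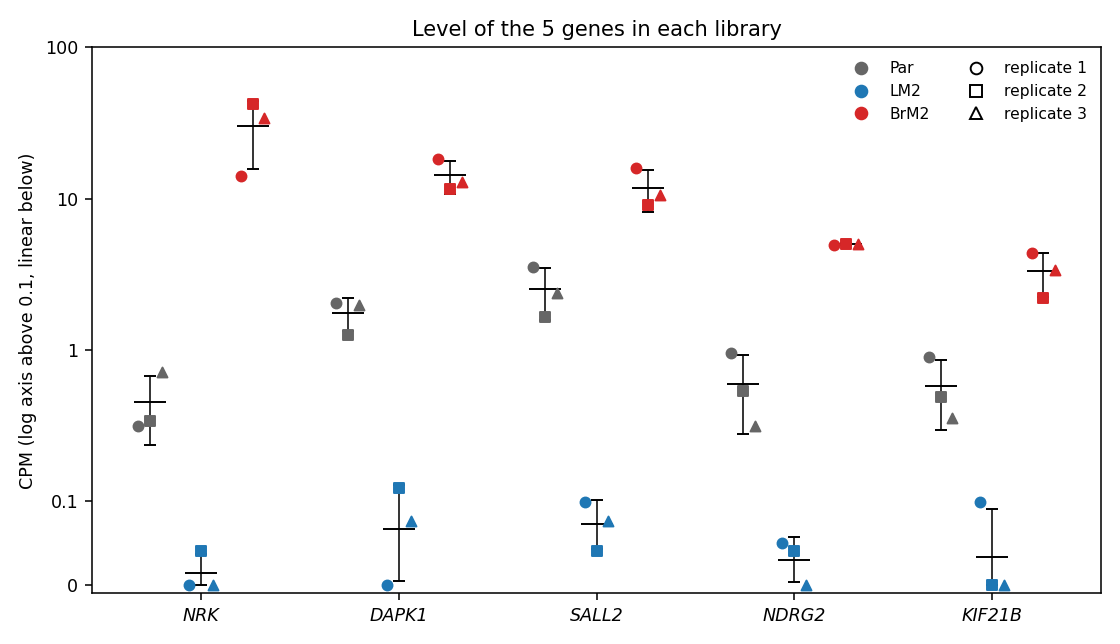
Level of NRK, DAPK1, SALL2, NDRG2 and KIF21B in each of the 9 libraries, in CPM on an axis that is logarithmic above 0.1 and linear below. Colors give the line, symbols the replicate, and bars the mean ± SD of 3 libraries; LM2 lies between 0 and 0.122 CPM for every gene, under every Par library, and BrM2 lies between 2.21 and 41.9 CPM, above every Par library.

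The separation seen for the 5 genes is what they were chosen for, and its frequency is given among the genes tested. These are the genes above 47.15 normalized counts in any library, a filter that NRK, NDRG2, KIF21B and DAPK1 passed only through BrM2. Genes low in every library were left out, so the shares depend on the filter and do not give the rarity among all genes counted. Every LM2 library was below every Par library in 13.3% of the genes tested, every BrM2 library was above every Par library in 15.2%, and both held in 1.10% (143 genes). All 3 LM2 libraries were at or under 3 counts in 0.507% of the genes tested, and 14 genes (0.108%) combined this with more than 3 counts in every Par library and a BrM2 above all of them, the 5 genes included. In the fit across all genes (edgeR), the log2 change of BrM2 against Par was 6.01 for NRK (SE 0.58), 3.08 for NDRG2 (0.43), 3.01 for DAPK1 (0.40), 2.52 for KIF21B (0.55) and 2.23 for SALL2 (0.35). The fitted changes of LM2 against Par ran from -5.03 (SALL2) to -4.05 (KIF21B), but they depend on the small count the fit adds to lines near 0, and the ratios above are to be preferred.

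Compared per kilobase of exon, the order of the 5 genes differed between Par and BrM2. The exon bases were pooled over all annotated transcripts of a gene, so the order of genes within a line also depends on the annotation. In Par, SALL2 came first at 0.467 ± 0.176 CPM per kb and DAPK1 second at 0.197 ± 0.0487, each above the next gene in every library. NDRG2 (0.0791 ± 0.0424), KIF21B (0.0474 ± 0.0231) and NRK (0.0474 ± 0.0230) followed with overlapping ranges. Within each Par library, NDRG2 was still above KIF21B. In BrM2, NRK had the highest mean at 3.14 ± 1.5 CPM per kb, before SALL2 (2.20 ± 0.671) and DAPK1 (1.60 ± 0.398). The ranges of these 3 overlapped as neighbours in the order, although SALL2 was above DAPK1 within each BrM2 library. NDRG2 (0.663 ± 0.0071) and KIF21B (0.272 ± 0.0882) came below them and were separate from each other. In LM2, no gene was above the next in every library.

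In 1 fit over all 9 libraries, replicate 1 differed from replicates 2 and 3 in 72.6% of the genes tested, and the 5 genes were examined for this difference, which had no part in their choice. NRK was lower in replicate 1, by a log2 difference of -1.33 (SE 0.29, edgeR adjusted p = 0.0017), with differences of -0.53 in Par, -0.26 in LM2 and -1.41 in BrM2. SALL2 was higher in replicate 1, by 0.75 (SE 0.18, adjusted p = 0.0029), and so was KIF21B, by 0.89 (SE 0.35, adjusted p = 0.039). DAPK1 (0.42, SE 0.25, adjusted p = 0.15) and NDRG2 (0.38, SE 0.34, adjusted p = 0.33) did not pass the threshold of 0.05. Thus 3 of 5 passed, which is near the share of all genes. The number was 1 without BrM2 replicate 1 or BrM2 replicate 2, where NRK (adjusted p = 0.31 and 0.087) and KIF21B (0.084 and 0.11) no longer passed, and 2 without Par replicate 1, Par replicate 3, LM2 replicate 1 or LM2 replicate 2, where KIF21B no longer passed (adjusted p between 0.054 and 0.13). The LM2 counts are too low for a comparison within that line.

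The wider set of genes with the same order of lines was counted next. In edgeR, 30 genes (0.230% of those tested) were both lower in LM2 and higher in BrM2 than in Par past an adjusted p of 0.05, and the 5 genes were among them by choice. With the replicate number as a block in the model, 144 genes (1.11%) were. Of the 30, 12 were at or under 3 counts in every LM2 library, which were the 5 genes and 7 others. By difference between BrM2 and LM2, the first 5 of the 30 were NCAM2, NRK, CCBE1, COX7B2 and CCL2. NCAM2, a neural cell adhesion molecule, had 13 to 23 counts in Par, 0 in all LM2 libraries and 80 to 405 in BrM2. CCBE1, a secreted factor of lymphatic vessel growth, had 345 to 444 counts in Par, 0 to 4 in LM2 and 601 to 1098 in BrM2. COX7B2, a paralogue of a cytochrome c oxidase subunit, had 5 to 8, 0 to 2 and 342 to 574. CCL2, the chemokine that attracts monocytes, had 32 to 49, 3 in every LM2 library and 570 to 1293. NRK thus came second of the 30, DAPK1, SALL2 and NDRG2 followed CCL2 in this order, and KIF21B came after CXCR4 and LINC01929.

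**Figure D2:**
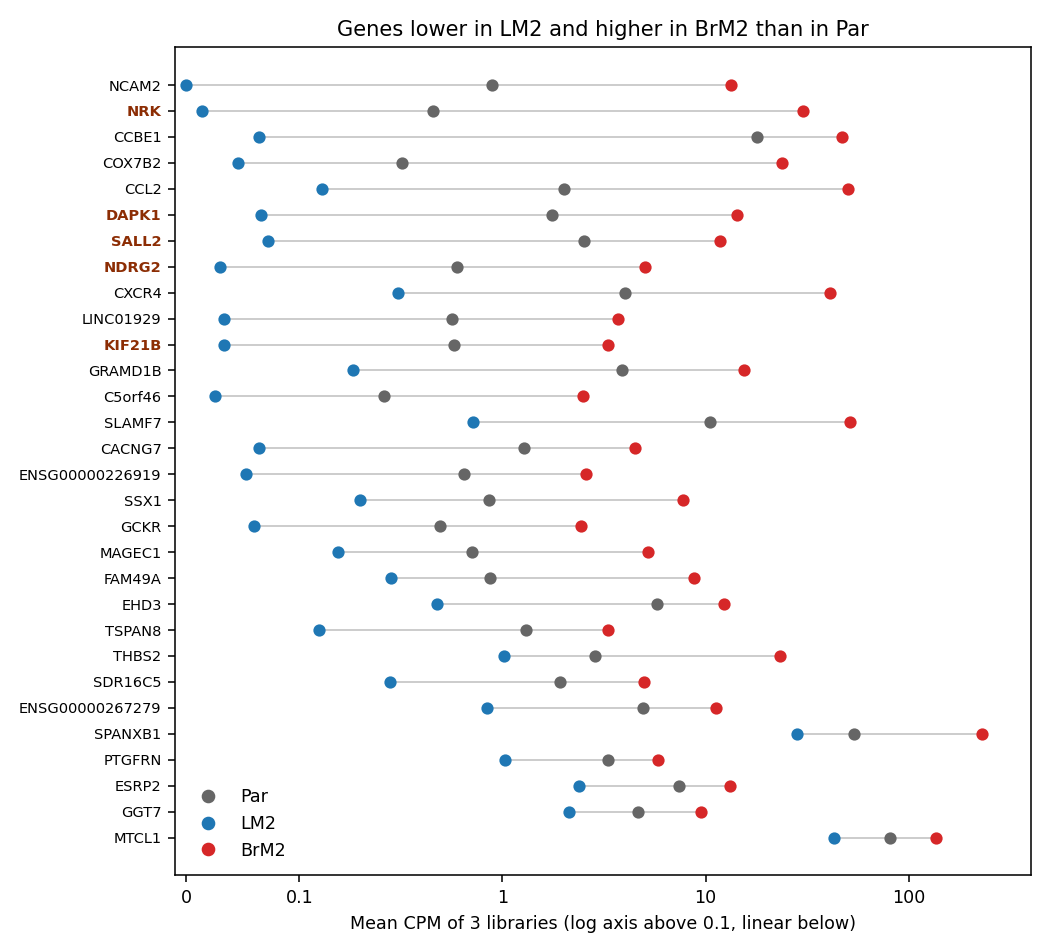
Mean CPM of 3 libraries in Par, LM2 and BrM2 for the 30 genes that were lower in LM2 and higher in BrM2 than in Par, ordered by the fitted difference between BrM2 and LM2, on an axis that is logarithmic above 0.1 and linear below. The 5 genes described here are set in bold; NRK goes from 0.0136 CPM in LM2 to 30.1 CPM in BrM2, while MTCL1, the last of the 30, is well detected in all 3 lines.

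The 5 genes followed each other closely over the 9 libraries, with a Pearson r of log2 CPM between 0.892 (NRK and SALL2) and 0.984 (NDRG2 and KIF21B). The libraries share 3 lines and the genes were chosen for one order of the lines, so these values describe the choice. Outside the 5, the genes most like NRK were SPANXB1 (r = 0.998), a cancer-testis antigen, SMIM31 (0.994) and FST (0.990), which encodes the activin inhibitor follistatin. FST had 1020 to 1885 counts in Par, 888 to 1007 in LM2 and 1991 to 3594 in BrM2, and so did not approach 0 in any line. The genes most like DAPK1 were ENSG00000226919 (0.994), the chemokine receptor CXCR4 (0.994) and the lymphocyte surface receptor SLAMF7 (0.991). CXCR4 had 61 to 107 counts in Par, 5 to 9 in LM2 and 657 to 897 in BrM2, and was also the third most like NDRG2 (0.989), after CCL2 (0.990) and GCKR (0.989), the regulator of glucokinase. SALL2 was followed most closely by PTGFRN (0.995), ENSG00000267279 (0.993) and the epithelial splicing regulator ESRP2 (0.991). KIF21B was followed by GM2A (0.989), PPP4R1 (0.989) and CHPT1 (0.986). PPP4R1, a regulatory subunit of protein phosphatase 4, spanned means of 194.9 CPM in Par, 160.8 CPM in LM2 and 232 CPM in BrM2, so a high r did not require a comparable size of change.

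Paralogues and known partners of the 5 genes were examined to see whether the order of lines was found in their families, and had no part in the choice of the 5. Of 54 such genes in 9 lists, 47 were tested. In LM2 against Par, 2 of 47 passed an adjusted p of 0.05 in edgeR, 1 higher and 1 lower, where 8.67% of all genes did (4.16% higher and 4.51% lower). In BrM2 against Par, 5 of 47 passed, 1 higher and 4 lower, where 13.2% of all genes did (6.24% higher and 7.00% lower). In BrM2 against LM2 1 of 47 passed, which was lower, where 8.10% did (4.09% higher and 4.01% lower). The median log2 changes of the 47 were -0.01, -0.04 and -0.05, next to 0.01, -0.02 and -0.03 over all genes. With the replicate block, 10, 16 and 11 of the 47 passed, where 34.5%, 42.7% and 37.5% of all genes did. No gene of the lists was both lower in LM2 and higher in BrM2 than in Par past the threshold in either model.

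Among the paralogues, the family of DAPK1 held a gene with a change against DAPK1's own rise in BrM2. DAPK2, a shorter calmodulin-regulated kinase of the same family, had 6.15, 5.28 and 6.96 CPM in Par, 5.06, 3.71 and 2.80 CPM in LM2, and 0.88, 0.71 and 1.01 CPM in BrM2. All BrM2 libraries were below all others. It fell in BrM2 against Par (log2 change -2.82, SE 0.31, edgeR adjusted p = 0.00052) and was lower in BrM2 than in LM2 (-2.15, SE 0.30, adjusted p = 0.0030), and both calls were kept without any 1 of the 9 libraries. Its change in LM2 against Par was -0.67 (SE 0.27, adjusted p = 0.21, and 0.037 with the replicate block). The other members of the family, DAPK3, STK17A (which overlaps COA1 on the opposite strand over 2.73% of its exon bases) and STK17B, had log2 changes between -0.34 and 0.11 against Par in both lines, and the smallest adjusted p among them was 0.57.

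The NDRG family likewise held a gene that fell in BrM2. NDRG1, a stress-responsive gene of the family, had 252, 226 and 294 CPM in Par, 218, 144.2 and 121.4 CPM in LM2, and 120.7, 68.6 and 75.6 CPM in BrM2. It fell in BrM2 against Par by a log2 change of -1.54 (SE 0.29, adjusted p = 0.0088), where the libraries of both lines were separate. Without BrM2 replicate 2 or BrM2 replicate 3 the adjusted p was 0.051. In LM2 against Par the change was -0.67 (SE 0.29, adjusted p = 0.23, and 0.011 with the replicate block), and in BrM2 against LM2 it was -0.87 (SE 0.29, adjusted p = 0.12, and 0.0037 with the block). NDRG3 and NDRG4 had log2 changes from 0.11 to 0.50 against Par, which did not pass.

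Among the STE20 kinases, those nearest to NRK are MAP4K4, MINK1 and TNIK, of which TNIK also takes part in Wnt signaling. TNIK had 10.4, 18.5 and 17.8 CPM in Par, 3.18, 7.88 and 9.66 CPM in LM2, and 3.69, 4.99 and 6.90 CPM in BrM2. Both metastatic lines lay below Par. In BrM2 against Par its log2 change was -1.58 (SE 0.44, adjusted p = 0.045, and 0.00011 with the replicate block). Without the block the call was lost without Par replicate 2 or 3, LM2 replicate 2, or BrM2 replicate 1, 2 or 3 (adjusted p between 0.073 and 0.15). In LM2 against Par the change of TNIK was -1.17 (SE 0.43, adjusted p = 0.15, and 0.00065 with the replicate block). MAP4K4 had 352 ± 34.7 CPM in Par, 216 ± 53.8 CPM in LM2 and 206 ± 42.4 CPM in BrM2, with log2 changes of -0.70 (SE 0.24, adjusted p = 0.13) and -0.77 (SE 0.24, adjusted p = 0.071) that passed only with the block (0.00092 and 0.00038). MINK1 had 107 ± 11.0, 114 ± 32.0 and 110 ± 23.4 CPM.

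The paralogues of SALL2 were not expressed at a measurable level. SALL1 and SALL3 had 0 counts in all 9 libraries, and SALL4, the stem cell factor of the family, had at most 4 counts in any library. SALL2 was thus the spalt-like gene with counts above the floor in all Par and all BrM2 libraries. In the NuRD complex, 12 subunits were tested. RBBP7, a histone-binding subunit, fell in both lines, from 362 ± 31.7 CPM in Par to 194 ± 26.9 CPM in LM2 (log2 change -0.90, SE 0.18, adjusted p = 0.015) and 199 ± 24.7 CPM in BrM2 (-0.87, SE 0.18, adjusted p = 0.013). The LM2 call was lost without Par replicate 2, Par replicate 3 or LM2 replicate 3 (adjusted p between 0.054 and 0.076), and the BrM2 call without Par replicate 2 (0.064). Without the filter on low counts the edgeR adjusted p in LM2 was 0.052. With the replicate block it was 9.5e-05 in LM2 and 9.1e-05 in BrM2. RBBP7 overlaps TXLNG on the opposite strand over 2.44% of its exon bases, and which strand was counted is not given in the sources used here. CHD3, a remodeling ATPase of the complex, rose in BrM2 from 196 ± 10.5 to 287 ± 12.2 CPM (0.55, SE 0.14, adjusted p = 0.035). This call was lost without any 1 library other than LM2 replicate 1 (adjusted p between 0.060 and 0.15). The edgeR adjusted p was 0.32 without the filter on low counts and 0.0016 with the replicate block. Of the SALL2 target genes CDKN1A, BAX, PMAIP1 and MYC, none passed in edgeR in any of the 3 comparisons, where 0, 1 and 1 of the 4 had an unadjusted p under 0.05. With the block 1, 2 and 2 of the 4 passed, where 34.5%, 42.7% and 37.5% of all genes did.

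KIF21A, the closest relative of KIF21B, had 17.8 ± 8.95 CPM in Par, 20.1 ± 13.5 CPM in LM2 and 11.7 ± 7.88 CPM in BrM2, differences that were within the spread between libraries of a line or close to it. Its log2 changes were 0.18 (SE 0.76, adjusted p = 0.95) in LM2 and -0.60 (SE 0.77, adjusted p = 0.73, and 0.021 with the block) in BrM2. Among the other kinesin-4 genes, KIF7, a regulator of Hedgehog signaling in the primary cilium, rose in LM2 from 6.81 ± 2.03 to 14.5 ± 0.515 CPM (log2 change 1.09, SE 0.28, adjusted p = 0.047), next to 7.44 ± 1.99 CPM in BrM2. This call was lost without Par replicate 1 or 3, LM2 replicate 1, 2 or 3, or BrM2 replicate 3 (adjusted p between 0.071 and 0.17). The edgeR adjusted p was 0.060 without the filter on low counts and 0.0055 with the replicate block. KIF7 overlaps TICRR on the opposite strand over 10.82% of its exon bases, and TICRR had 741 to 1029 counts in Par, 1419 to 2329 in LM2 and 508 to 1003 in BrM2, so the part of TICRR reads in the rise of KIF7 was not tested.

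**Figure D3:**
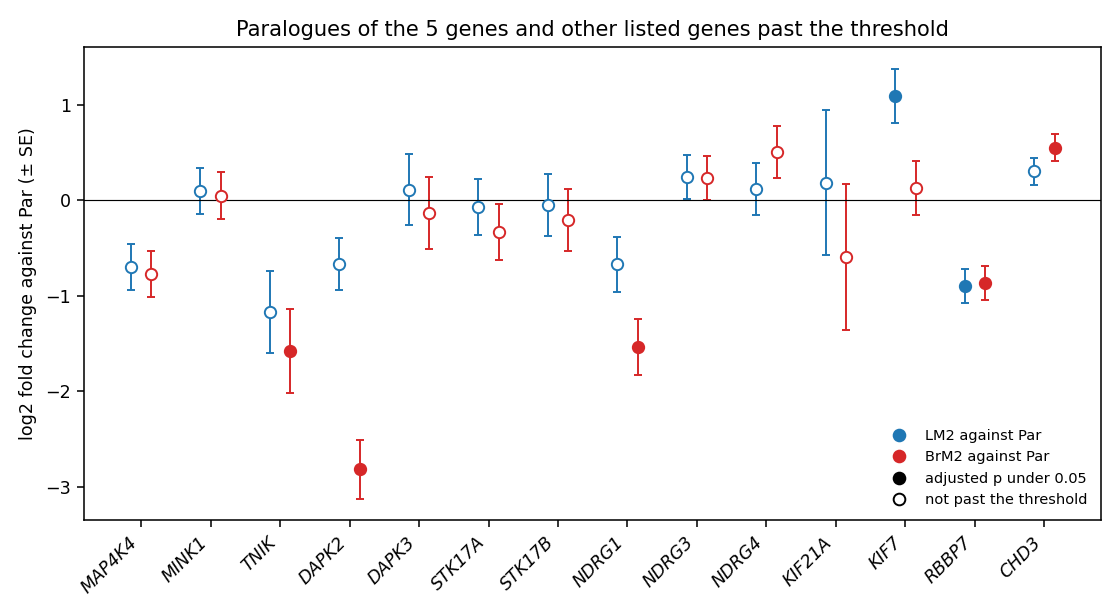
Log2 fold change against Par with its SE, from the edgeR fit, in LM2 and BrM2. The genes are the nearest tested paralogues of NRK, DAPK1, NDRG2 and KIF21B, and also KIF7, RBBP7 and CHD3. No paralogue of SALL2 was tested. Other tested genes of these families are not shown. Filled points passed an adjusted p of 0.05. DAPK2 (-2.82), NDRG1 (-1.54) and TNIK (-1.58) lie below 0 in BrM2, and no gene shown is filled below 0 in LM2 and above 0 in BrM2.

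The genes around the 5 were examined to see whether neighbours had the same order of lines. Within 500 kb of the genes, 21 genes were tested, 2 near DAPK1, 11 near NDRG2, 9 near SALL2 (which are also near NDRG2, with 8 of them lying between the genes), 8 near KIF21B and 0 near NRK. In LM2 against Par 3 of 21 passed in edgeR (1 higher, 2 lower), in BrM2 against Par 2 of 21 passed (both lower), and in BrM2 against LM2 1 of 21 passed (higher), where 8.67%, 13.2% and 8.10% of all genes did. With the replicate block, 9, 11 and 12 of the 21 passed, where 34.5%, 42.7% and 37.5% of all genes did.

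Between NDRG2 and SALL2, which both had at most 2 counts in any LM2 library, lie 8 tested genes (ZNF219, LINC00641, HNRNPC, SUPT16H, CHD8, RAB2B, TOX4 and METTL3), all of them detected in LM2. Their log2 changes ran from -1.34 to 0.25 in LM2 (median -0.02) and from -0.79 to 0.47 in BrM2 (median 0.18). None passed in edgeR in any of the 3 comparisons, with 1, 1 and 2 of the 8 at an unadjusted p under 0.05 and 0, 1 and 1 called by DESeq2, which called 14.5%, 19.3% and 14.0% of all genes. With the replicate block 1, 3 and 4 of the 8 passed, against the same 34.5%, 42.7% and 37.5%. METTL3, an RNA methyltransferase whose gene lies 9.7 kb from SALL2, had log2 changes of -0.18 in LM2 (adjusted p = 0.80) and 0.28 in BrM2 (adjusted p = 0.57). Between BrM2 and LM2 its change was 0.45 (edgeR adjusted p = 0.35, and 0.015 with the block). ARHGEF40, whose span overlaps that of NDRG2, had a log2 change of -0.61 in LM2 (edgeR adjusted p = 0.39, and 0.0038 with the block). In BrM2 against Par it was -0.35 (adjusted p = 0.62, and 0.041 with the block). On the far side of NDRG2, at a distance of 213.9 kb, RNASE1, a secreted ribonuclease, fell in both lines. It had 50, 35 and 47 counts in Par, 1, 0 and 0 in LM2, and 3, 2 and 0 in BrM2 (adjusted p = 0.0018 and 0.0037), so it was near 0 in LM2 as NDRG2 was but not higher in BrM2. The Par to BrM2 ratio of its CPM was 23.1 (counting interval 9.67 to 72.4), and the Par to LM2 ratio of 143.4 (25.3 to 5705) rests on 1 count.

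Beside DAPK1, CDK20 showed the fall in LM2 without the rise in BrM2. CDK20, a cyclin-dependent kinase gene 257.8 kb away, had 98, 68 and 75 counts in Par, 12, 7 and 5 in LM2, and 40, 68 and 65 in BrM2. Every LM2 library was below the others. The log2 change was -3.42 (SE 0.42, adjusted p = 0.0013) in LM2 against Par, 3.10 (SE 0.42, adjusted p = 0.0025) in BrM2 against LM2, and -0.32 (SE 0.36, adjusted p = 0.67) in BrM2 against Par. CTSL, which encodes the lysosomal protease cathepsin L and lies 17.5 kb from DAPK1, had 121 ± 6.65 CPM in Par, 85.3 ± 3.28 CPM in LM2 and 67.4 ± 2.56 CPM in BrM2, and fell in BrM2 against Par (-0.84, SE 0.15, adjusted p = 0.0062, and 0.066 without the filter on low counts). The 482 other genes tested on chromosome 9 had a median log2 change of -0.37 in BrM2 against Par, next to -0.02 over all genes, while DAPK1 was higher in BrM2. The medians of the chromosomes of the other members in BrM2 against Par were -0.35 on X (424 genes), -0.12 on 14 (400 genes) and -0.03 on 1 (1237 genes).

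Near KIF21B, IGFN1, a muscle protein gene 167.1 kb away, had 1 count in each Par library, 8, 98 and 108 in LM2, and 0, 18 and 18 in BrM2. Its rise in LM2 passed the threshold (adjusted p = 0.023, ratio to Par 65.7 with a counting interval of 22.2 to 321), in the direction opposite to KIF21B, and was lost without any 1 of the Par libraries or LM2 replicates 2 or 3 (adjusted p between 0.067 and 0.10). The other 7 tested neighbours of KIF21B did not pass without the replicate block. With it 4, 5 and 6 of the 8 passed in LM2 against Par, BrM2 against Par and BrM2 against LM2, IGFN1 among them each time. Of all genes, 34.5%, 42.7% and 37.5% passed with the block. INAVA, 53.6 kb from KIF21B and the nearest of the 8, had log2 changes of 0.33 in LM2 (adjusted p = 0.82) and 1.59 in BrM2 (adjusted p = 0.071, and 0.000937 with the block). PHLDA3, 440.6 kb away, changed the other way in BrM2, by -1.55 (edgeR adjusted p = 0.069, and 7.0e-05 with the block). In LM2 its change was -1.04 (adjusted p = 0.26, and 0.00093 with the block). KIF14 (-0.79), TMEM9 (-0.72), CAMSAP2 (-0.35) and DDX59 (-0.31) also had negative log2 changes in BrM2, and CSRP1 had 0.04.

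**Figure D4:**
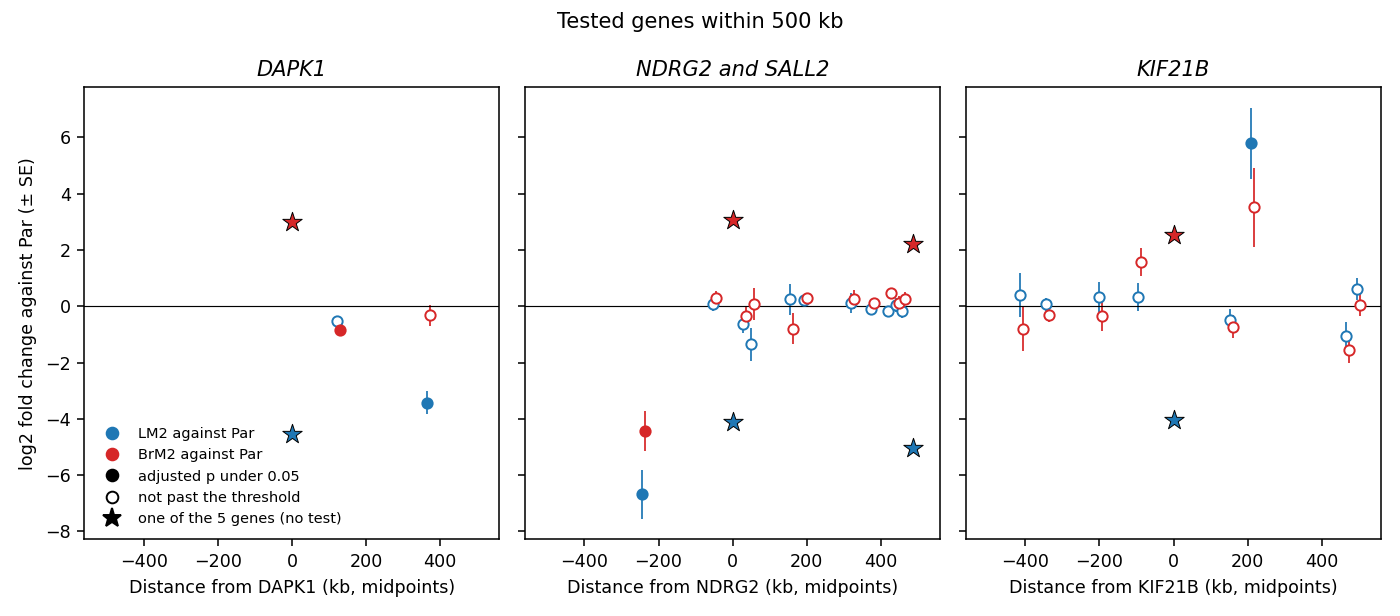
Log2 fold change against Par with its SE in LM2 and BrM2 for tested genes within 500 kb of DAPK1, NDRG2 and KIF21B, by distance between gene midpoints in kb; stars are DAPK1, NDRG2, SALL2 and KIF21B, whose values are a description with no test, and filled points passed an adjusted p of 0.05. The 8 genes between NDRG2 and SALL2 lie between -1.34 and 0.47, all open, and the filled points are RNASE1 near NDRG2, CTSL and CDK20 near DAPK1, and IGFN1 near KIF21B.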

How the data were processed

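The authors counted reads per gene with STAR 2.7.0 on hg38, from stranded mRNA libraries, and deposited the counts without normalization. A second deposited table holds the authors' own DESeq2 comparisons and was not used. The count table had 58887 rows, and 3 repeated identifiers with identical counts were taken once. A filter written after HTSFilter kept 13018 genes above 47.15 normalized counts in any library. Lines were compared in edgeR 4.0.16 (R 4.3.3) with TMM normalization and the quasi-likelihood test over all 9 libraries, with Benjamini-Hochberg adjustment over all tested genes and a threshold of 0.05. DESeq2 1.42.0, another normalization (relative log expression), no filter, a replicate block, and libraries or replicate numbers left out were alternatives. The edgeR and DESeq2 fits were tested on simulated counts with a smaller spread and no shared deviation of same-numbered libraries. That test cannot show how the fits without the block behave on these libraries.

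The genes and lists were chosen with earlier results of these data known. Named besides the 5 were their nearest paralogues, genes of the lists and neighbours past the threshold, the 3 most correlated genes per member, and the 5 of widest difference in the same direction. ARHGEF40, the 8 genes between NDRG2 and SALL2, and the neighbours of KIF21B other than IGFN1 were named after their values were seen. Replicate numbers pair the libraries, since deviations from the line means correlated at 0.23 to 0.90 in all 9 same-numbered pairs, and the common dispersion was 0.11 without the block and 0.021 with it. Ratios of summed CPM have exact conditional binomial intervals. CPM per kb used the exon bases of GENCODE, and positions and promoters came from RefSeq (GRCh38.p14).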

Additional observations from a re-analysis of the deposited data

Results flagged for a closer look

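For the 5 genes, every LM2 library lay below and every BrM2 library above every Par library, so the lines moved in opposite directions from Par. The BrM2 to LM2 ratios of summed CPM were 2300 for NRK, 193.4 for DAPK1, 177.2 for NDRG2, 158.2 for SALL2 and 110.9 for KIF21B. The genes were chosen for this difference, and it was not tested. NRK has 1 count in LM2 over 3 libraries, and the counting interval of its ratio runs from 412 to 90911.

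In 2 genes of the lists and the neighbourhoods the effects of the lines differed from each other in a test. DAPK2 was lower in BrM2 than in LM2 by a log2 change of -2.15 (edgeR adjusted p = 0.0030), opposite to its paralogue DAPK1, and CDK20, in the neighbourhood of DAPK1, was higher in BrM2 than in LM2 by 3.10 (adjusted p = 0.0025). Both passed in all 9 fits that left out 1 library, but not without replicate 2 of all lines (adjusted p = 0.19 for both) or replicate 3 of all lines (0.075 for DAPK2 and 0.10 for CDK20).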

How the results depend on the processing

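Of 240 alternative values of the log2 changes of the 5 genes, whose sign the choice of the genes fixes, 14 moved by more than the replicate SD, all in comparisons with LM2 and with libraries or replicate numbers left out. Of the related genes, the number past the threshold in LM2 against Par, BrM2 against Par and BrM2 against LM2 was 2, 5 and 1, and with the replicate block, which the pairing of the libraries allows, it was 10, 16 and 11. Of the neighbours it was 3, 2 and 1, and 9, 11 and 12 with the block. Of all genes, 8.67%, 13.2% and 8.10% passed, and 34.5%, 42.7% and 37.5% with the block. DESeq2 gave 8 and 3 related genes in BrM2 against Par and against LM2, and 6 and 3 neighbours. Without the filter, 0 related genes passed in LM2 against Par (edgeR, 5 at an unadjusted p under 0.05, and 3 by DESeq2 with the filter), and 4 and 2 neighbours passed in BrM2 against Par and against LM2. With libraries or replicate numbers left out, related genes numbered 0 to 10, 0 to 14 and 0 to 10, and neighbours 0 to 9, 0 to 12 and 0 to 9, with the highest numbers without replicate 1 and the lowest without replicate 2 or 3, where 1 to 5 related genes and 1 to 3 neighbours had an unadjusted p under 0.05 in a comparison. Members past the threshold between replicate 1 and the others numbered 1 to 3 with libraries left out. The cause of these changes was not tested. LM2 libraries with 0 to 3 counts limit how far a fall can be measured.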

Other observations

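Among the partners of DAPK1, UNC5B and MYL9 were singled out after their values were seen. UNC5B, a netrin receptor that signals cell death through DAPK1, was below the filter on low counts and was not tested, with 42, 27 and 30 counts in Par, 13, 7 and 4 in LM2, and 5, 9 and 1 in BrM2. MYL9, a myosin light chain of the kind that DAPK1 phosphorylates, had 231 ± 119 CPM in Par, 151 ± 88.0 CPM in LM2 and 79.4 ± 35.3 CPM in BrM2 (SD, n = 3). Its log2 change in BrM2 against Par was -1.54 (SE 0.51, edgeR adjusted p = 0.088, and 3.8e-06 with the replicate block), and replicate 1 had the highest level in each line.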
